A study of Mus musculus with 3 samples.

Results

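The hedgehog pathway genes described here are Ptch1, Gli1, Gli2, Gli3, Smo, Hhip, Boc, Cdon and Gas1, which were chosen by name, and all 9 were found among the 24738 genes that the 3 single-cell RNA libraries list in common. Each library was made once, by droplet sequencing of mouse cells. The D6 PM library holds cells after paraxial mesoderm specification with the WNT agonist CHIR (5 μM) and the BMP inhibitor LDN-193189 from D2 to D6, before any hedgehog agonist. The D10 culture library holds the cells after a further period from D6 to D10 in TGFβ1 (10 ng/mL), FGF2 (10 ng/mL) and SAG (100 nM), a small molecule that activates smoothened. The E14.5 tail library holds untreated cells of embryonic mouse tail. The cultured cells came from mouse embryonic stem cells that carry ScxGFP, a reporter of the tendon gene Scx, and were maintained on fibroblast feeders, and the tail embryos came from ScxGFP dams. GEO's labels describe the libraries as differing in origin and in the time of isolation, and the agents are those of the study's methods. No D10 library without SAG was among them, so the addition of SAG, TGFβ1 and FGF2, the removal of CHIR and LDN-193189 and the passage of time cannot be told apart in any comparison of D10 with D6.

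Hedgehog ligands bind the receptor Ptch1, which otherwise holds the membrane protein Smo inactive. Once Smo is released, as it is by SAG without any ligand, the signal passes through the primary cilium to the transcription factors Gli2 and Gli3, which act as activators or are processed to repressors. Ptch1, Gli1 and Hhip are widely used as transcriptional readouts because they are direct targets, and Ptch1 and Hhip restrain the pathway in turn, Hhip by binding ligand at the cell surface. Boc, Cdon and Gas1 are co-receptors that present ligand to Ptch1. In the embryo, sonic hedgehog from the notochord and floor plate patterns the somite and specifies sclerotome, the source of axial cartilage and tendon.

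RefSeq start sites in the mouse build GRCm38.p6 were available for 7 of the 9 members, and Gli1 and Boc had no entry. The 250 bases before each start were searched on both strands for the Gli consensus GACCACCCA, for its core ACCACCC, which lies inside the consensus, and for the shorter CCACCC, which lies inside both. The full consensus occurred in 0.225% of 32851 RefSeq windows of this length, ACCACCC in 3.92% and CCACCC in 28.1%. CCACCC was present in 4 members (Gli2, Gli3, Smo and Hhip) and absent from 3 (Ptch1, Cdon and Gas1), and the full consensus was in no member. The windows of Ptch1 and Hhip are shown because Hhip had the highest ratios to D6 and Ptch1 is the receptor, and that of Gli2 because it alone held ACCACCC. All 3 genes lie on the minus strand, at chr13:63565736-63565985 for Ptch1, chr8:80058009-80058258 for Hhip and chr1:119053620-119053869 for Gli2. Each is written 5′ to 3′ on the gene's strand, with CCACCC or its reverse complement in capitals.
Ptch1: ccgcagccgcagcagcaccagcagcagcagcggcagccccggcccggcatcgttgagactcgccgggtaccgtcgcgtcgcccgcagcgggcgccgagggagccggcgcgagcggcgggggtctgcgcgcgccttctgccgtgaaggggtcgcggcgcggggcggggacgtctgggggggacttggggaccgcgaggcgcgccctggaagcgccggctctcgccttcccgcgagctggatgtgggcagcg
Hhip: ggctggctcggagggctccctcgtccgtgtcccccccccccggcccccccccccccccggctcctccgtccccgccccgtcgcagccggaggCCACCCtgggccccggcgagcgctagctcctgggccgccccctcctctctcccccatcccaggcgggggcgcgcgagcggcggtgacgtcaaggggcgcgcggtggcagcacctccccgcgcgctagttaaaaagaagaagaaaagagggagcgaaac
Gli2: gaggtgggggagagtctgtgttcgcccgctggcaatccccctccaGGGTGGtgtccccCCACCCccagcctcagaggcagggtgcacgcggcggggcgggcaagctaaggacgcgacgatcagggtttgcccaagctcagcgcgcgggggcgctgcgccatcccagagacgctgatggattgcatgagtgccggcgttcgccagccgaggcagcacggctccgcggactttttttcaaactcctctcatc
The Hhip match lay 158 to 153 bases before the start. In Gli2 the matches lay 192 to 187 and 205 to 200 bases before it, and the second, on the opposite strand, extended to ACCACCC at 205 to 199. These letter matches are descriptions of the windows, and no binding was measured.

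The libraries held 7821 cells (D10 culture), 2052 cells (E14.5 tail) and 5954 cells (D6 PM), with 53403944, 31343741 and 51858825 unique molecular identifiers (UMIs, each counting 1 captured RNA molecule) and medians of 5622, 13512 and 8171 UMIs per cell. Culture and tail had been clustered together by the authors and D6 separately, and only codes without names were deposited, so 27 pairs of cluster and library with at least 50 cells were named here from marker genes or stayed unnamed. The study numbers the culture and tail clusters from 0, and each code is 1 above that number by its count of cells. Code 3 of the culture (1088 cells) is by this count the cluster for which the study's text proposes fibrocartilage. By its markers it was named pluripotent-like here, and code 4 (855 cells) fibrocartilage-like. Levels are UMIs of a gene per 1000000 UMIs of all genes (CPM), summed over the cells of a cluster, with exact 95% Poisson intervals. Shares of cells with a UMI were taken after every cell was thinned to 3000 UMIs, which left out 1157 cells of the D10 culture, 100 of the tail and 1006 of D6, and carry exact 95% binomial intervals. With 1 library per group there was no replicate error and no test, and all intervals cover counting error only. Barcodes shared between libraries numbered 3 to 10 per pair of libraries. In the tail, a cluster that should lack the pathway genes, erythroid-like cluster 12 with 128 cells and a median of 8391.5 UMIs, held 0 to 4 UMIs of each member, and its thinned shares were 0% to 1.60%. A share of 0 of its 125 thinned cells allows up to 2.91%. The other erythroid-like cluster of the tail, cluster 6 with 71 cells and a median of 12862 UMIs, held more, with 147 Gas1 UMIs (145 CPM), 33 of Smo, 27 of Ptch1, 20 of Gli3 and 15 of Cdon, and 1 to 5 of the other members. Its erythroid markers summed to 153980.3 CPM, against 865147 CPM in cluster 12, and its thinned shares were 0% to 13.2%.

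The clusters named tendon-like, proliferating tendon-like and fibrocartilage-like (codes 1, 2 and 4) are called Scx clusters below, and unnamed D10 cluster 7, with Scx at 2388 CPM where tendon-like cells had 2410.3 CPM, is not among them. All 11 tendon markers were detected in the tendon-like cells of both libraries, at a summed 12450.2 CPM in the culture and 10532 CPM in the tail. The leading genes of tail tendon-like cells by fold over the rest of the library nonetheless included genes of contractile and mural cells (Actg2, Myh11, Cnn1 and Rgs5). Vtn, Col6a6, C1qtnf3 and 1 tendon marker, Thbs4, were also among the first 10. That rest holds other clusters with tendon markers, such as proliferating tendon-like cells (7895 CPM) and unnamed cluster 9 (6917 CPM). The leading genes of cultured tendon-like cells included Tnmd, Thbs4 and Aspn besides Actg2. Cells of the same code may differ in type between the libraries, which was not tested. The Scx clusters of the culture were compared with the D6 somite-like cluster of 700 cells, in which 8 of 8 somite markers were detected with a summed level of 684 CPM. Its leading genes included Zic1, Zic4, Lamc3 and Aldh1a2, and Aldh1a2 was the only somite marker among its 10 leading genes. It also held all 5 muscle markers, at a summed 281 CPM, against 9.22 CPM in the D10 tendon-like cluster and 11.3 CPM in the tail one. No measure of closeness decided this choice. Unnamed D6 cluster 5, whose leading genes included Lyz2, Ctsk, Lox, Thbs2 and Col1a1, had more of the tendon markers (6633 CPM, against 1089 CPM in somite-like and 12450.2 CPM in D10 tendon-like cells) and less Scx (5.43 against 50.2 CPM), and it held Ptch1 at 20.5 CPM, Gli1 at 2.20 CPM and Hhip at 0.339 CPM. Its fibroblast and mesenchyme markers summed to 2414 CPM, against 477 CPM in somite-like and 2583 CPM in D10 tendon-like cells. Its somite markers summed to 25.8 CPM. The proliferation markers summed to 1030.2 CPM in somite-like cells, against 759.7, 4979 and 676 CPM in the D10 tendon-like, proliferating tendon-like and fibrocartilage-like clusters, and the part of these differences in the results was not tested. Leaving out the 151 somite-like cells with a UMI of a muscle marker kept all 27 member ratios against D6 within their intervals, an alternative chosen after the data were seen. The Hhip ratios, which then rest on 4 D6 UMIs, moved from 67.0, 79.2 and 79.8 to 107, 127 and 128.

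**Figure D1:**
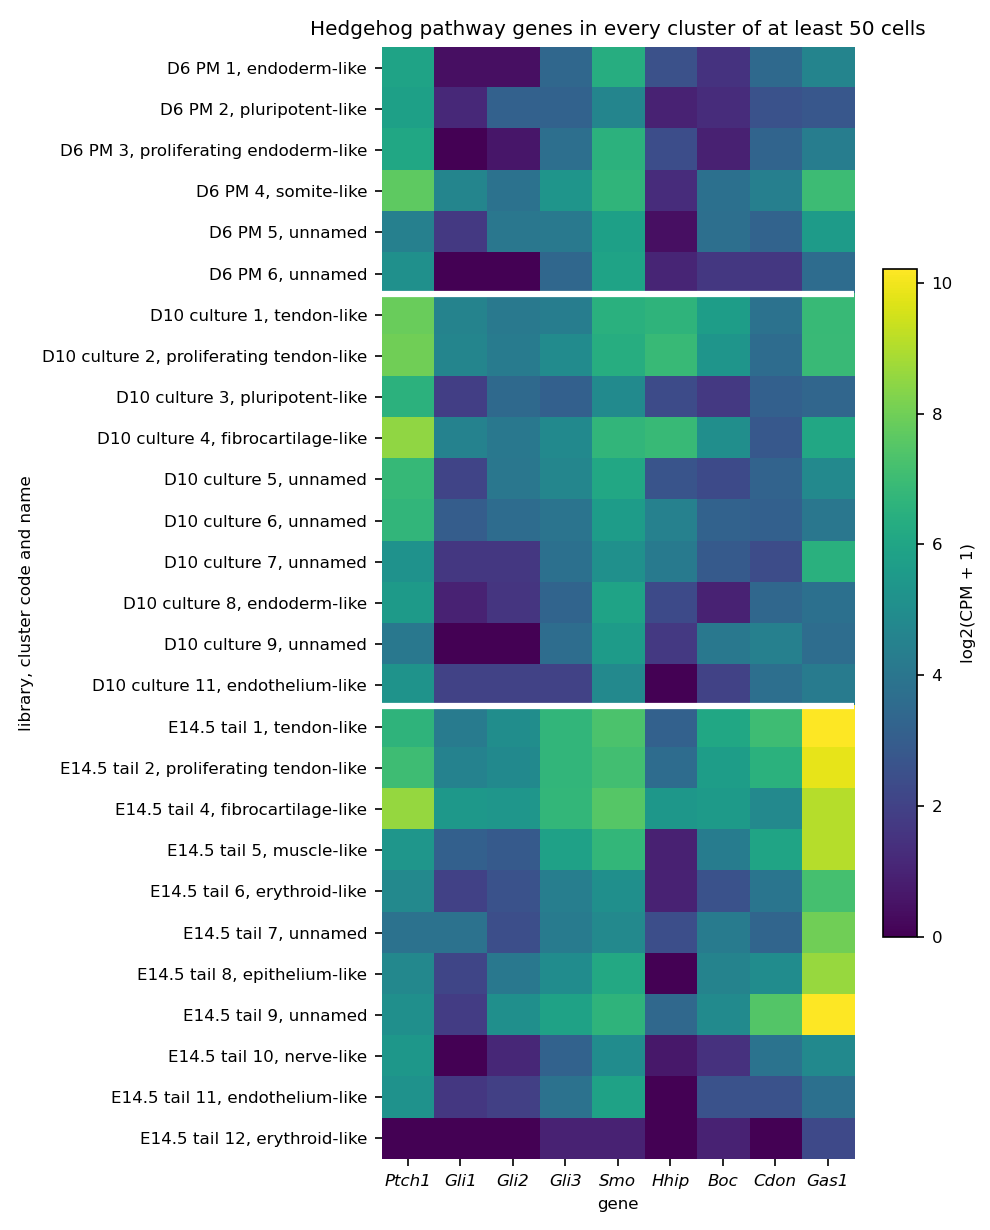
Levels of the 9 genes (columns) in the 27 clusters of at least 50 cells (rows, with the authors' code and the name given here), as log2(CPM + 1), with white lines between the D6 PM, D10 culture and E14.5 tail libraries. Hhip is brightest in D10 clusters 1, 2 and 4, Gas1 and Cdon are brightest in the tail, and tail erythroid-like cluster 12 is dark throughout.

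Over all cells, the D10 culture held more of most pathway genes than D6 PM. By the rule used throughout, that a gene's CPM differ at least 2-fold, 6 of the 9 members (66.7%) were higher at D10 and 0 were lower, where 15.4% of all genes with a mean of at least 5 CPM were apart in either direction, 8.63% higher and 6.81% lower. The median log2 ratio was 1.38 over the members and 0.04 over all genes. Hhip differed most, at 64.2 CPM in the D10 culture and 2.80 CPM in D6, 23.0-fold (interval 19.4 to 27.3). Boc was 6.56-fold higher (5.67 to 7.61), Gli1 4.15-fold (3.53 to 4.91), Gli2 2.68-fold (2.33 to 3.08), Ptch1 2.61-fold (2.51 to 2.71) and Gas1 2.16-fold (2.04 to 2.29). Gli3 was 1.38-fold higher, and Smo (1.01-fold, 0.964 to 1.06) and Cdon (1.09-fold, 0.963 to 1.23) could not be told from equal levels.

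The make-up of the 2 libraries differed, and the members were unevenly spread over clusters. In the D10 culture the tendon-like, proliferating tendon-like and fibrocartilage-like clusters held 66.1% of cells and 57.3% of UMIs. They held 96.2% of the Hhip UMIs, 94.6% of those of Boc, 91.1% of Gli1 and 90% of Gas1, but 78.9% of Ptch1 and 65.9% to 73.0% of Smo, Gli3, Gli2 and Cdon. In D6 the somite-like cluster held 11.7% of UMIs and 147 of the 181 Gli1 UMIs (81.2%). It held 17.3% to 45.2% of the UMIs of the other members except Hhip, of which it held 9 of 145 (6.21%). The D6 Hhip UMIs were mostly in the endoderm-like clusters (120 of 145, 82.8%), at 4.79 and 4.32 CPM. The comparison of whole libraries therefore joins a change in levels with a change in the mix of cells, and the comparisons below were made cluster by cluster.

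Between D6 somite-like cells and D10 Scx clusters, the 3 readouts of the pathway did not move together. Hhip was at 1.48 CPM (0.677 to 2.81, 9 UMIs) in somite-like cells and at 99.3 CPM (94.5 to 104) in D10 tendon-like, 117 CPM (111 to 124) in proliferating tendon-like and 118 CPM (107 to 130.5) in fibrocartilage-like cells. The ratios were 67.0 (35.2 to 147), 79.2 (41.6 to 174) and 79.8 (41.6 to 176), and the width of these intervals comes from the 9 UMIs at D6. The thinned share of cells with an Hhip UMI was 0.330% (0.0400 to 1.19) in somite-like cells and 21.7%, 24.5% and 25.4% in the D10 clusters. In the D10 pluripotent-like cells of the same library, at a median of 10369.5 UMIs, the share was 1.39%. Before thinning the shares were 1.14% in somite-like cells and 30.1%, 44.5% and 29.8% in the D10 clusters. All 3 D10 clusters lay far above both the somite-like and the pluripotent-like cells.

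Gli1, the activator that is itself a target, could not be told from an equal level on both sides. It was at 24.2 CPM (20.4 to 28.4) in D6 somite-like cells and at 22.5 CPM (20.3 to 24.9), 24.0 CPM (21.2 to 27.1) and 22.3 CPM (17.5 to 27.9) in the D10 tendon-like, proliferating and fibrocartilage-like clusters. The ratios were 0.932 (0.768 to 1.14), 0.992 (0.807 to 1.22) and 0.920 (0.686 to 1.22), and a difference within these bounds was not detectable at this depth. The thinned shares were 6.27% at D6 and 5.46% to 6.41% at D10. Somite-like cells thus carried Gli1 before SAG was added, while the other D6 clusters were at 0 to 2.20 CPM.

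Ptch1, the receptor and feedback inhibitor, was already at 204 CPM (193 to 216) in D6 somite-like cells. It was at 234 CPM (227 to 242) in D10 tendon-like, 257 CPM (247 to 267) in proliferating tendon-like and 366 CPM (346 to 387) in fibrocartilage-like cells. These were ratios of 1.15 (1.08 to 1.22), 1.26 (1.17 to 1.34) and 1.79 (1.65 to 1.94), all above 1 and all under 2-fold. The thinned share of cells with a Ptch1 UMI was 36.8% in somite-like cells and 45.4%, 49.6% and 59.4% in the D10 clusters, and before thinning it was 67.3% and 60.6%, 74.3% and 68.2%, so that the order of somite-like and tendon-like cells depended on depth. The other D6 clusters were at 20.5 to 67.3 CPM of Ptch1.

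None of the transducers was 2-fold higher at D10, and they did not differ in the same direction. Smo, the target of SAG, was at 101 CPM at D6 and at 88.0, 81.9 and 105 CPM in the 3 D10 clusters, with ratios of 0.875, 0.815 and 1.05. Gli2 was at 13.5 CPM (82 UMIs) at D6 and at 16.5, 18.2 and 16.2 CPM in the 3 D10 clusters, higher in each by less than 2-fold. Gli3, whose processed form is the main repressor, was at 38.8 CPM (34.0 to 44.1) at D6 and lower in each D10 cluster, at 18.9, 29.7 and 27.4 CPM. In tendon-like cells its ratio was 0.487 (0.410 to 0.580), which passed the 2-fold rule, but the median gene was itself lower at D10 (by 0.15 on the log2 scale), and relative to it the ratio was 0.541 and did not.

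The co-receptors went different ways. Boc was higher in all 3 D10 clusters, at 50, 39.2 and 31.6 CPM against 12.8 CPM (10.1 to 16.0) at D6, with ratios of 3.89 (3.08 to 4.98), 3.06 (2.40 to 3.94) and 2.46 (1.82 to 3.34). Cdon was lower, at 13.4, 11.2 and 6.01 CPM against 20.2 CPM, and passed 2-fold in fibrocartilage-like cells (0.297, 0.175 to 0.479). Gas1 was at 128 CPM at D6 and at 116 and 119 CPM in the tendon-like clusters, and was 0.535-fold (0.459 to 0.621) in fibrocartilage-like cells at 68.3 CPM. Boc thus differed in the opposite direction to Cdon, a close relative of it.

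**Figure D2:**
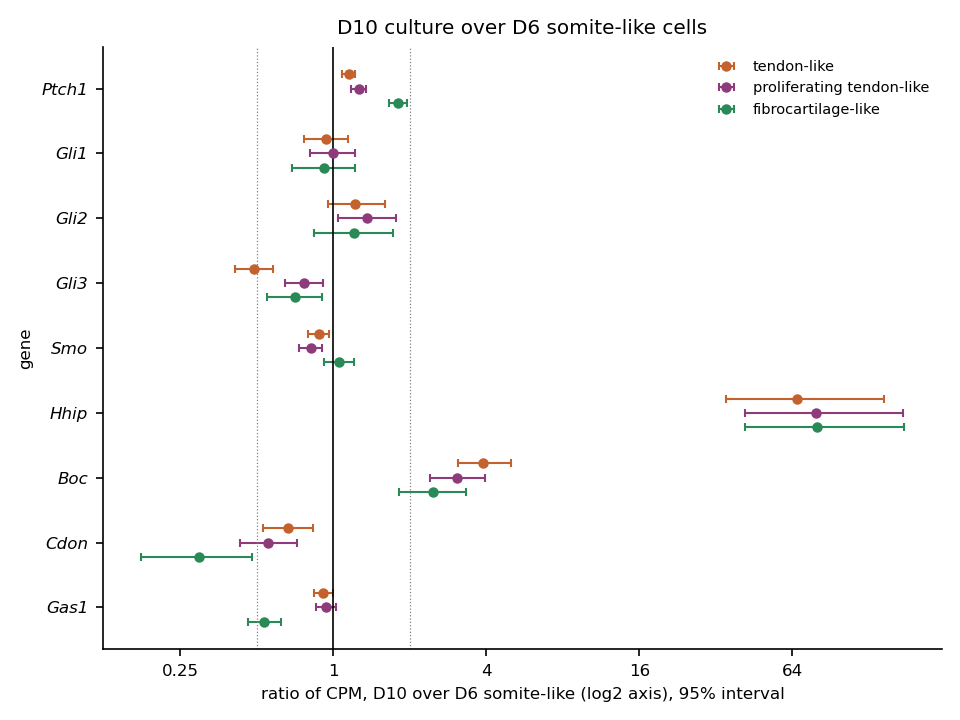
Ratio of CPM in each of 3 D10 clusters over D6 somite-like cells for the 9 genes, on a log2 axis, with exact 95% intervals from counting error, dotted lines at 2-fold and a solid line at 1. Hhip lies between 67.0 and 79.8 in all 3 clusters and Boc between 2.46 and 3.89, while Gli1 spans 1 in each.

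Counted by the 2-fold rule, 3 of 9 members (33.3%) were apart between D10 tendon-like and D6 somite-like cells, Hhip and Boc higher and Gli3 lower, where 22.7% of 11006 genes were (11.2% higher and 11.5% lower). In proliferating tendon-like cells 2 of 9 (22.2%) were apart, both higher (Hhip and Boc), against 26.5% of genes (12.4% higher), and in fibrocartilage-like cells 3 of 9 (33.3%), Hhip and Boc higher and Cdon lower, against 23.2% (11% higher and 12.2% lower). These shares were near those of all genes. The median log2 ratio of the members was -0.10, -0.01 and 0.07, and that of all genes -0.15, -0.15 and -0.11. The 3 comparisons share the D6 cluster.

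Pluripotent-like cells were present in both cultures, with 1038 cells at D6 and 1088 at D10. Their markers differed. Pluripotent markers summed to 8266 CPM at D6 and 5309 CPM at D10, and muscle markers to 1148 and 274 CPM. Proliferation markers summed to 1808 and 2948 CPM and tendon markers to 40.4 and 219 CPM. The part of these differences in the ratios was not tested. Ptch1 was at 54.8 CPM (50.7 to 59.1) at D6 and 92.2 CPM (86.8 to 97.8) at D10, a ratio of 1.68 (1.53 to 1.86). Gas1 was 1.60-fold (1.18 to 2.18) and Cdon 1.55-fold (1.11 to 2.18) higher at D10, and Smo 1.19-fold (1.01 to 1.40), while the intervals of Gli2, Gli3 and Boc held 1. Gli1 (15 and 32 UMIs, 2.22-fold) and Hhip (12 and 47 UMIs, 4.07-fold) passed 2-fold, so that 2 of 9 members (22.2%) were higher, but both fell under the mean of 5 CPM that the background used. Of the 6 members above it, 0 were apart, where 8.11% of 10556 genes were and 4.82% were higher.

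Low levels in these cells can include RNA released by the abundant tendon-like cells of the same library. In D10 pluripotent-like cells, 6 tendon genes such as Col1a1 and Scx stood at 1.19% to 2.93% of their tendon-like level. Hhip stood at 4.04% (2.95 to 5.39), Boc at 4.44% (2.88 to 6.55), Gas1 at 8.13% and Gli1 at 12.1% of theirs. Smo, Ptch1, Gli3, Cdon and Gli2 stood at 32.1%, 39.3%, 41.4%, 58.0% and 62.0%. The levels of the last 5 genes lay far above the tendon genes' share, whereas those of Hhip and Boc lay near it, and the part of released RNA was not tested.

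The tail gave the in vivo level of each gene in clusters of the same codes as the culture. Other markers differed between these clusters. Proliferation markers summed to 759.7 CPM in cultured and 149 CPM in tail tendon-like cells, and cartilage markers to 6413 CPM in cultured and 11908 CPM in tail fibrocartilage-like cells. Erythroid markers summed to 0.654 to 4.94 CPM in the 3 clusters of the culture and 1469 to 4465 CPM in those of the tail, and the part of these differences in the ratios was not tested. The readouts were divided again. In tendon-like cells, Ptch1 was at 99.4 CPM (93.3 to 106) in the tail and 234 CPM in the culture, 2.36-fold higher in the culture (2.20 to 2.53). Hhip was at 8.0 CPM (6.35 to 9.94) in the tail and 99.3 CPM in the culture, 12.4-fold higher (9.93 to 15.7). Gli1 was at 17.8 CPM (15.3 to 20.6) in the tail, and the culture was 1.27-fold higher (1.06 to 1.52). In proliferating tendon-like cells the culture was 1.97-fold higher for Ptch1 (1.80 to 2.16), 10.6-fold for Hhip (7.93 to 14.4) and 1.08-fold for Gli1 (0.853 to 1.38).

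Fibrocartilage-like cells differed from this pattern. Ptch1 was at 385 CPM (365 to 407) in the tail and 366 CPM in the culture, a ratio of 0.95 (0.878 to 1.03). Gli1 was at 42.3 CPM (35.6 to 49.9) in the tail, and the culture stood at 0.526 of it (0.391 to 0.702). Hhip was at 41.7 CPM (35.1 to 49.3) in the tail and was still 2.83-fold higher (2.33 to 3.46) in the culture. The thinned shares were close for Ptch1 and went the way of the CPM for the other readouts, at 56.7% (tail) and 59.4% (culture) for Ptch1, 12.9% and 5.46% for Gli1, and 6.67% and 25.4% for Hhip.

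The transducers were lower in culture than in tail in all 3 clusters. Gli3 was at 104, 103 and 107 CPM in the tail tendon-like, proliferating and fibrocartilage-like cells and at 18.9, 29.7 and 27.4 CPM in the culture, so that the tail was 5.51-fold (4.85 to 6.27), 3.48-fold (3.0 to 4.03) and 3.90-fold (3.09 to 4.97) higher. Gli2 was at 30.8, 27.9 and 40.5 CPM in the tail, and the culture stood at 0.536, 0.652 and 0.401 of it. Smo was at 160.3, 138 and 183 CPM in the tail, and the culture stood at 0.549, 0.592 and 0.576 of it.

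Among the co-receptors, Gas1 and Cdon showed the widest gaps of the set in favour of the tail. Gas1 was at 1173 CPM (1152 to 1194), 916 CPM (888 to 945) and 539 CPM (514 to 564) in the 3 tail clusters and at 116, 119 and 68.3 CPM in the culture, 10.1-fold (9.60 to 10.6), 7.68-fold (7.21 to 8.19) and 7.89-fold (6.87 to 9.10) higher in the tail. Its thinned share was 83.9% of tail tendon-like cells and 23.7% of cultured ones (94.7% and 34.0% before thinning). Cdon was at 131, 90.3 and 27.2 CPM in the tail and was 9.76-fold (8.46 to 11.3), 8.06-fold (6.55 to 9.97) and 4.52-fold (2.76 to 7.76) higher there than in the culture. Boc was closer, at 67.4, 50.6 and 46.9 CPM in the tail, with the culture at 0.742, 0.775 and 0.674 of it. No D10 cluster reached the Gas1 level of any of the 3 tail clusters, and outside D10 clusters 1, 2 and 4 the highest D10 level was 89.0 CPM, in unnamed cluster 7.

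**Figure D3:**
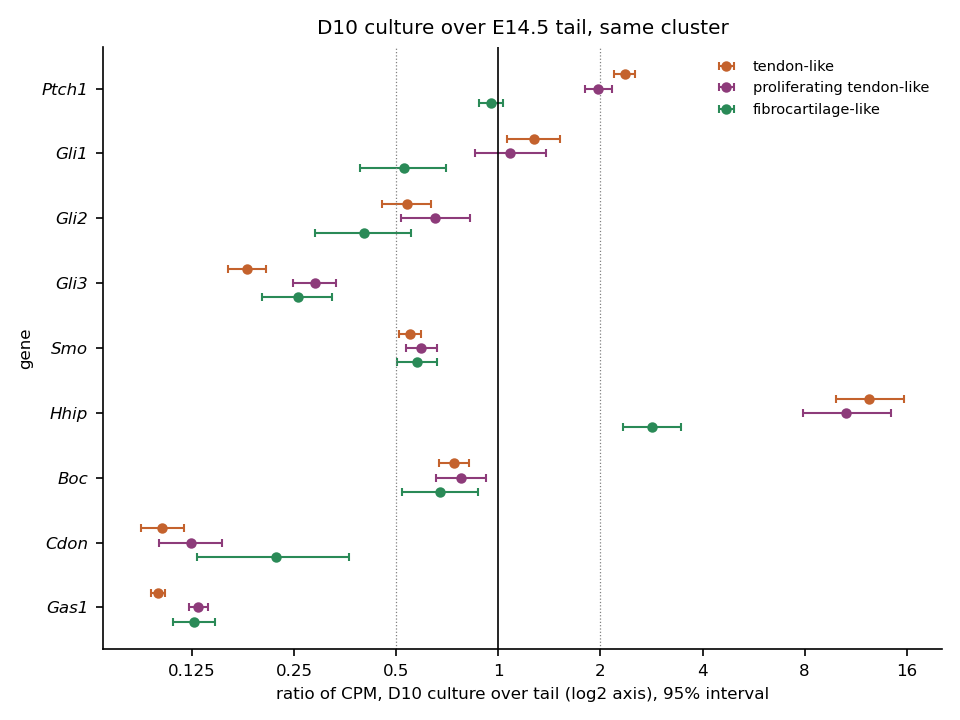
Ratio of CPM in the D10 culture over the E14.5 tail within 3 clusters for the 9 genes, on a log2 axis, with exact 95% intervals from counting error, dotted lines at 2-fold and a solid line at 1. Hhip lies to the right in every cluster, and Gli2, Gli3, Smo, Boc, Cdon and Gas1 lie to the left in every cluster.

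By the 2-fold rule, 5 of 9 members (55.6%) were apart between culture and tail in tendon-like cells, 2 higher in the culture (Ptch1 and Hhip) and 3 lower (Gli3, Cdon and Gas1), where 20.9% of 11307 genes were (7.54% higher and 13.4% lower). In proliferating tendon-like cells 4 of 9 (44.4%) were apart, 1 higher (Hhip) and 3 lower, against 18.3% of genes (6.86% higher and 11.5% lower), and relative to the median gene Ptch1 passed as well, at 2.18-fold. In fibrocartilage-like cells 5 of 9 (55.6%) were apart, 1 higher (Hhip) and 4 lower (Gli2, Gli3, Cdon and Gas1), against 19.9% (7.28% higher and 12.6% lower). The median log2 ratio was -0.87, -0.62 and -0.93 for the members and -0.18, -0.15 and -0.15 for all genes. Of all genes, 852 were higher and 1512 lower in cultured tendon-like cells, or 1055 and 1197 relative to the median gene. The corresponding counts were 757 and 1265, or 938 and 1029, in proliferating cells, and 804 and 1394, or 1004 and 1109, in fibrocartilage-like cells.

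The step from tendon-like to fibrocartilage-like cells was examined within each library, since hedgehog signalling is known to favour cartilage in the sclerotome. In the tail, Ptch1 was 3.88-fold (3.57 to 4.22), Gli1 2.38-fold (1.90 to 2.99) and Hhip 5.22-fold (3.94 to 6.95) higher in fibrocartilage-like cells, and Cdon (0.208) and Gas1 (0.459) were lower. This made 5 of 9 members (55.6%) apart, where 10.5% of 11486 genes were (3.78% higher and 6.71% lower). In the culture the same step was 1.56-fold for Ptch1 (1.46 to 1.67), 0.987-fold for Gli1 (0.759 to 1.27) and 1.19-fold for Hhip (1.06 to 1.33). There 1 of 9 members (11.1%) was apart, Cdon at 0.449 (0.269 to 0.711), a call that the mean of each cell's own CPM did not keep, where 6.63% of 10665 genes were (2.45% higher and 4.18% lower). Gas1 (0.586) and Boc (0.632) were also lower, as in the tail, where Boc stood at 0.696. The marker genes also differed in the size of this step. Cartilage markers summed to 1135 CPM in tendon-like and 6413 CPM in fibrocartilage-like cells of the culture, and to 519.7 and 11908 CPM in those of the tail. Tendon markers summed to 12450.2 and 7089 CPM in the culture and to 10532 and 3886 CPM in the tail, and the part of these differences in the readout ratios was not tested. For all 3 readouts, and for Cdon and Gas1, the intervals of culture and tail did not overlap, and whether embryos or cultures would differ in this way was not tested, with 1 library each. These intervals take UMIs as independent. In tail fibrocartilage-like cells thinned to 3000 UMIs, Hhip was in 6.67% of cells where an even spread gives 11.4%. Gas1 was in 57.1% where it gives 83.3%, so the intervals of these 2 genes are too narrow. The ratios of Gli2 (0.983 and 1.31), Smo (1.20 and 1.14) and Gli3 (1.45 and 1.02) had overlapping intervals.

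**Figure D4:**
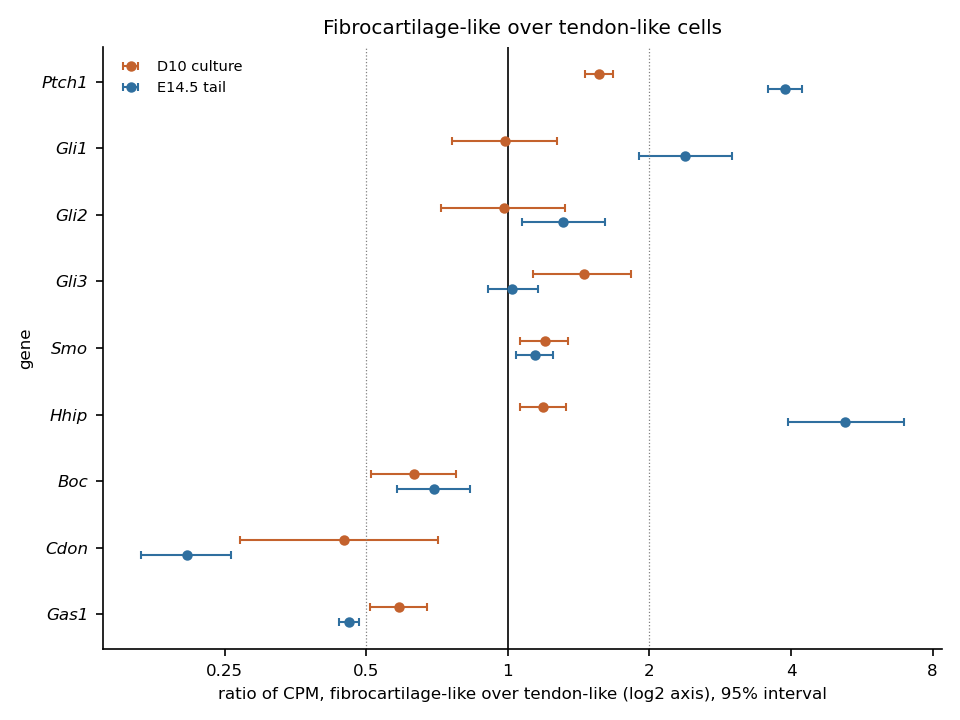
Ratio of CPM in fibrocartilage-like over tendon-like cells for the 9 genes in the D10 culture and in the E14.5 tail, on a log2 axis, with exact 95% intervals from counting error, dotted lines at 2-fold and a solid line at 1. The tail points of Ptch1 (3.88), Gli1 (2.38) and Hhip (5.22) lie to the right of the culture points (1.56, 0.987 and 1.19).

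The tail fibrocartilage-like cluster also held the ligands Shh, at 40.2 CPM, and Ihh, at 6.05 CPM (20 UMIs). Elsewhere in the tail, Shh was at 49.3 CPM (11 UMIs) in unnamed cluster 7 and at 29.3 CPM (51 UMIs) in epithelium-like cells. In the fibrocartilage-like cluster, all 133 Shh UMIs were in 2 of its 241 cells, and 20 of the cells had a UMI of the notochord markers T, Shh or Krt19. Without those 20 cells Ptch1 was at 402 CPM, Gli1 at 43.1 CPM and Hhip at 44.1 CPM, and the same 5 members were apart from tendon-like cells, with ratios of 4.04, 2.42 and 5.51 for the 3 readouts. In the 20 cells Ptch1 was lower, at 228 CPM (178 to 287). The choice of these cells was made after the data were seen.

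Across the clusters, each gene had its own order. Hhip was highest in the 3 D10 Scx clusters, followed by tail fibrocartilage-like cells, and D10 fibrocartilage-like and proliferating cells could not be told apart. Ptch1 was highest in the 2 fibrocartilage-like clusters, which could not be told apart, followed by D10 proliferating tendon-like, D10 tendon-like and D6 somite-like cells, each lower than the last beyond counting error. Gli1 was highest in tail fibrocartilage-like cells. The next 6 clusters, from D6 somite-like to tail tendon-like, lay between 24.2 and 17.8 CPM, and no neighbours among them could be told apart. Gli3, Smo, Gas1 and Cdon were each higher in the tail tendon-like clusters than in any D6 or D10 cluster.

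**Figure D5:**
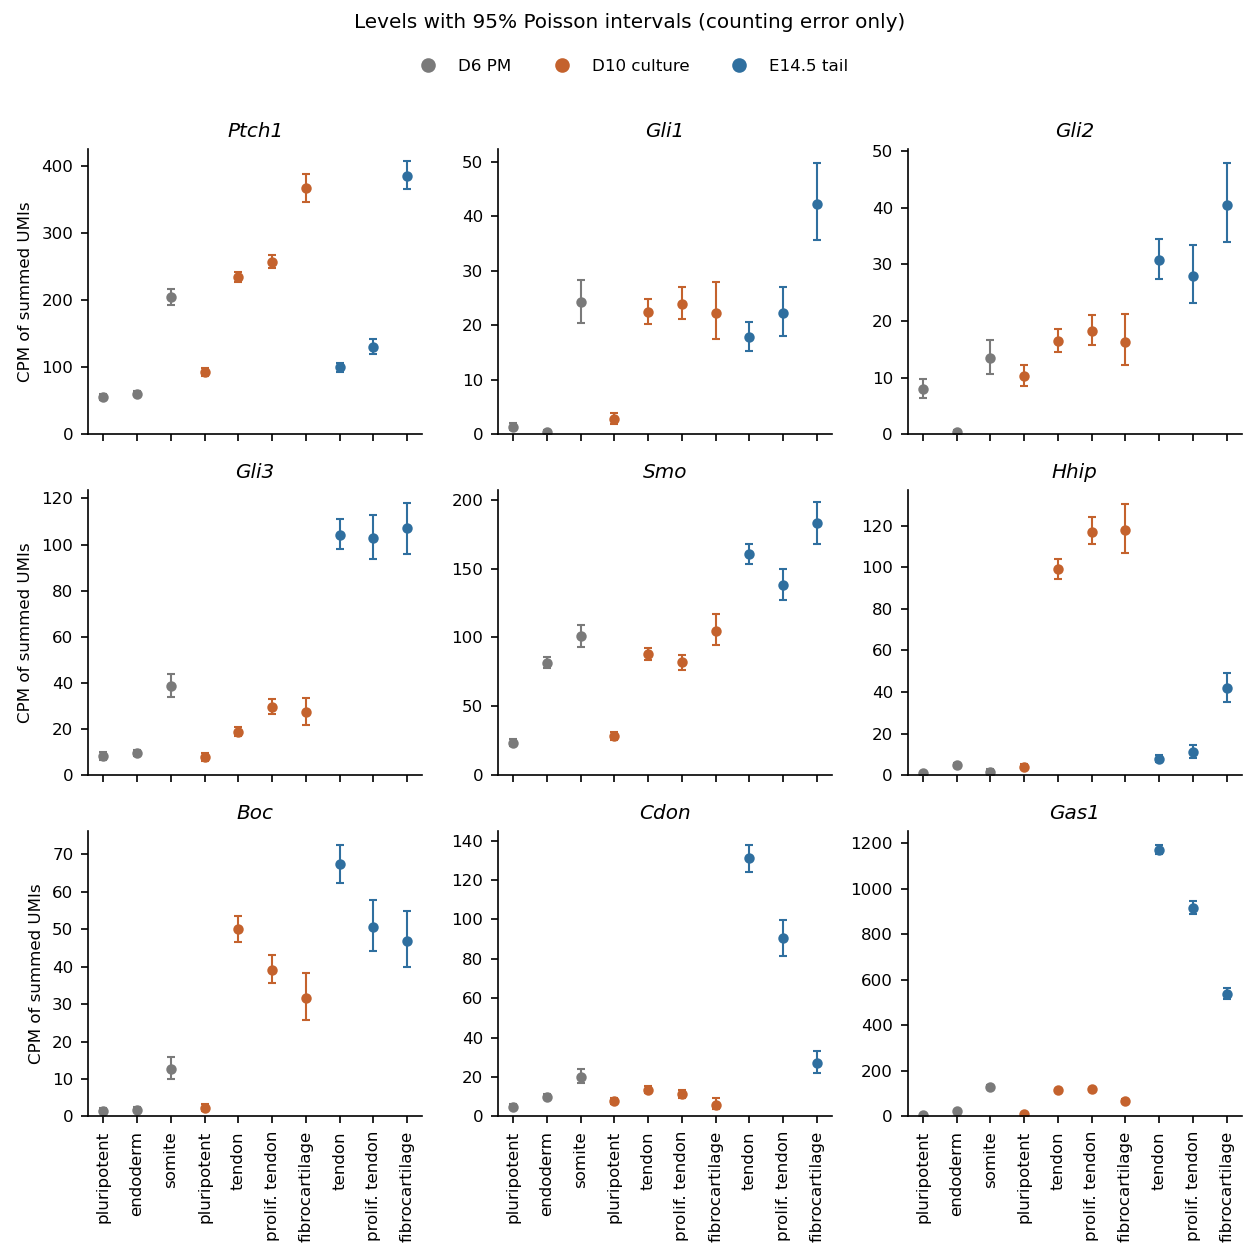
CPM of each gene in 3 D6 PM, 4 D10 culture and 3 E14.5 tail clusters, with exact 95% Poisson intervals from counting error, each panel on its own linear axis from 0. D10 Scx clusters stand highest for Hhip (99.3 to 118 CPM) and tail clusters highest for Gli3 (103 to 107 CPM) and Gas1 (539 to 1173 CPM).

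Some members were high in other clusters too. In the tail, unnamed cluster 9 (157 cells) had the highest Cdon of all 27 clusters, at 179 CPM, and its Gas1, at 1181 CPM, could not be told from that of tail tendon-like cells, while its Ptch1 was at 32.9 CPM and its Gli1 at 2.47 CPM. Muscle-like cells of the tail had Gas1 at 544 CPM and Cdon at 60.9 CPM, with Hhip at 2 UMIs. Nerve-like cells had no Gli1 UMI, and endothelium-like cells no Hhip UMI. Gli1 had no UMI in 5 of the 27 clusters, including D6 proliferating endoderm-like cells, whose Ptch1 was nonetheless at 67.3 CPM.

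Within D10 tendon-like cells, Hhip, Ptch1 and Gas1 were in fewer cells than an even spread gives. At 3000 UMIs per cell, 21.7% of D10 tendon-like cells had an Hhip UMI, where an even spread of the same UMIs would have given 26.4%, and 53 of 2595 cells had 3 or more, up to 8. For Ptch1 the share was 45.4% where an even spread gives 51.7%, and for Gas1 23.7% where it gives 28.5%. The shares were 23.7% and 23.9% for Smo and 13.8% and 14.1% for Boc. At 169 UMIs in 2595 cells, the measure cannot show how evenly Gli1 was spread. In tail fibrocartilage-like cells Hhip was more uneven, in 6.67% of cells where an even spread gives 11.4%. Cells with both Ptch1 and Hhip made up 10.1% (9.0 to 11.4) of D10 tendon-like cells, where independence gives 9.86%, so joint detection was close to what the separate shares give.

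Across the 27 clusters, which share libraries and depth, the members fell into loose groups by Pearson r of log2(CPM + 1). Gli3 and Gas1 were closest among the members (r = 0.87), followed by Gli3 and Smo and by Cdon and Gas1 (both 0.82). Gli1 followed Gli2 and Boc (both 0.81) more than the other readouts, with r = 0.66 to Ptch1 and 0.62 to Hhip, and Hhip and Cdon were least alike (0.16). Of 11830 genes, those most like Hhip were Zim1 (0.84), Fmod (0.84), a collagen-binding proteoglycan of tendon, and Lrig3 (0.83). Gli1 was most like Islr (0.89), Col9a1 (0.88), a cartilage collagen, and Foxd1 (0.88), and Ptch1 most like Lca5 (0.88), Cyp51 (0.88), a sterol synthesis enzyme, and Kdelc1 (0.87). Boc was most like Lsp1 (0.92), Olfml3 (0.91) and Ddr2 (0.90), a collagen receptor. Gas1 was most like Glt8d2 (0.91), 2700069I18Rik (0.89) and Pcdh18 (0.88), Gli3 like Zfp783 (0.88), Gas1 (0.87) and Efnb1 (0.87), Cdon like Zfp783 (0.85), Egfl6 (0.84) and Setbp1 (0.82), Gli2 like Gli1 (0.81), Prss35 (0.79) and Gm11627 (0.78), and Smo like Zfp146 (0.93), Rcn2 (0.92) and Cnep1r1 (0.92).

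Most ligand UMIs of the cultures lay in other clusters. In D6, the endoderm-like clusters held 2784 of the 2855 Ihh UMIs (97.5%) and 245 of the 256 Shh UMIs (95.7%), with Ihh at 110.1 and 103 CPM and Shh at 9.74 and 8.91 CPM. Somite-like cells had Ihh at 3.29 CPM and 2 Shh UMIs. In the D10 culture, the 3 Scx clusters held 4 of 32 Shh UMIs, 4 of 22 Ihh UMIs and 5 of 20 Dhh UMIs. Unnamed D10 cluster 5 held 15 of the Shh UMIs, at 2.25 CPM, and the endoderm-like cluster 11, at 10.7 CPM. Of the Scube genes, whose products help release ligand, Scube1 was at 88.5 CPM in somite-like cells, 48.5 to 74.4 CPM in the D10 Scx clusters and 16.3 to 37.8 CPM in the tail ones, and Scube2 was at 2 UMIs in somite-like cells and at 22.4 CPM in D10 tendon-like cells, though its highest level was 54.7 CPM in unnamed tail cluster 9. Scube3 was at 2.80 CPM in somite-like and 12.6 CPM in pluripotent-like cells of D6, and its highest D10 level was 29.3 CPM, in endoderm-like cells. Disp1, which releases ligand from its source, was at 8.50 CPM in D10 tendon-like and 18.3 CPM in somite-like cells.

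Of 14 listed genes reported to respond to hedgehog in mesoderm, 10 passed the filter, and 7 of these were at least 2-fold higher in D10 tendon-like than in D6 somite-like cells (Foxf2, which passed the filter only through its D10 level, Pax1, Pax9, Ccnd1, Ccnd2, Bcl2 and Sfrp1) and 1 was lower (Mycn), where 22.7% of all genes were apart (11.2% higher and 11.5% lower), with a median log2 ratio of 1.37 where that of all genes was -0.15. Pax9, a sclerotome factor, was at 6.75 CPM at D6 and at 65.0, 102 and 215 CPM in the D10 tendon-like, proliferating and fibrocartilage-like cells, close to the tail's 80.3, 73.7 and 181 CPM. Pax1, its relative, was at 7.40 CPM at D6 and at 17.2, 32.8 and 143 CPM at D10, but at 122, 289.6 and 1073 CPM in the tail. Foxf1 was at 0.482, 1.96 and 7.22 CPM in the culture and at 28.0, 37.4 and 68.6 CPM in the tail, whereas Foxf2 was at 38.8 CPM in cultured and 32.0 CPM in tail tendon-like cells. Against the tail tendon-like cells, 11 genes passed the filter, of which 1 (Foxc2) was higher in the culture and 4 (Foxf1, Pax1, Ccnd1 and Bcl2) were lower, or 2 and 3 relative to the median gene, where 7.54% of all genes were higher and 13.4% lower.

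Other regulators and cilium genes were counted in the same way. Of 14 regulators that passed the filter, Evc, a ciliary partner of Smo, and Gpc3, a glypican that binds ligand, were higher in D10 tendon-like than in D6 somite-like cells (15.2 against 5.92 CPM and 996 against 332 CPM), and Sufu, the inhibitor that holds Gli proteins in the cytoplasm, was lower (12.2 against 33.7 CPM). These 3 of 14 were near the 22.7% of all genes. Of 21 genes for the primary cilium, 2 were higher (Ift20 and Ift57) and 5 lower (Ift74, Ift81, Ift88, Dync2h1 and Dync2li1), where 11.2% of all genes were higher and 11.5% lower, with a median log2 ratio of -0.71 where that of all genes was -0.15. Against tail tendon-like cells, 1 cilium gene (Ift57) was higher in the culture and 7 were lower, or 3 relative to the median gene, where 20.9% of all genes were apart.

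Some members overlap other genes in the GENCODE annotation, and whether the counts used strand is not given in the sources used here. Arhgap9, which overlaps Gli1 on the opposite strand, was at 0.840 to 3.31 CPM in the D10 Scx clusters, 0.231 to 2.72 CPM in those of the tail and 2.80 CPM in somite-like cells. Its highest D6 level, 8.05 CPM, was in pluripotent-like cells, where Gli1 was at 1.23 CPM, and its highest tail level, 21.0 CPM, was in unnamed cluster 9, where Gli1 was at 2.47 CPM.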

How the data were processed

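Single-cell suspensions of the D6 PM, D10 culture and E14.5 tail cells were processed with the 10x Genomics 3′ v3 chemistry. The authors made the deposited UMI counts per gene and cell with Cell Ranger and filtered and clustered cells with Seurat 3.0. By the study's methods, reads mapping to several places were ignored, and cells above 7.5% mitochondrial reads or in the lowest or highest 2% of transcripts per cell were removed. Culture and tail were integrated before clustering, so their codes come from batch-corrected values, whereas the levels here come from the counts. The genome build of the counts is not given in the sources used here. No cell was removed here.

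Counts were summed per cluster code and library and divided by the total (CPM). Clusters of fewer than 50 cells in a library were left out of cluster comparisons. Ratio intervals were exact conditional binomial intervals at 95%, which take UMIs as independent, and 0 counts were bounded at 3 counts. The background was the share of genes at least 2-fold apart among those with a mean of at least 5 CPM over both groups. Members and gene lists were chosen with earlier results of these data known. Named genes were the 9 members, the listed pathway genes, overlapping genes, and the 3 genes most like each member. Of the listed genes, Adrbk1 was in no file and Nkx3-2 was not in the D6 file. Scrublet, run in Scanpy 1.11.5 at an expected doublet rate of 6%, called 116, 9 and 81 cells in the D10, tail and D6 libraries, and called cells were left out only in an alternative. The 2-fold rule and the intervals were run on simulated Poisson counts, the model that the intervals assume. All 200 simulated 4-fold changes were recovered in each of 2 comparisons, and 95.6% and 95.4% of intervals covered the true ratio. The simulation held no variation between cells or libraries, so it cannot show the error from either. Python 3.11.15, NumPy 2.4.6 and SciPy 1.17.1 were used.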

Additional observations from a re-analysis of the deposited data

How the results depend on the processing

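No paired analysis was possible because each group is 1 library, and for the same reason no library could be left out in turn. Counts of members apart moved by more than 1.5 times mainly with the fold used. At 4-fold, 3 members were apart between the whole D10 and D6 libraries, 1 between D6 somite-like cells and each of the D10 tendon-like, proliferating and fibrocartilage-like clusters, 1 in pluripotent-like cells, 2 in fibrocartilage-like cells of culture against tail, and 0 (culture) and 2 (tail) between fibrocartilage-like and tendon-like cells. At 1.5-fold, 5 were apart between D10 fibrocartilage-like and D6 somite-like cells, 6 in pluripotent-like cells, 7 in proliferating tendon-like cells of culture against tail and 4 between cultured fibrocartilage-like and tendon-like cells. In this last comparison, the mean of each cell's own CPM left 0 apart. Shares of all genes are given here at 2-fold only, so the counts at 4-fold and 1.5-fold are not set against a background. None of the 90 member ratios reversed under the alternatives run on them. Leaving out called doublets or cells under 1000 genes kept all 90 within their intervals. The mean of each cell's CPM moved 11 out of them, leaving mitochondrial, ribosomal and haemoglobin genes out of the total moved 2, and scaling to the median gene moved 12, the largest shift of that gene being -0.18 on the log2 scale, with Gli3 no longer apart between D10 tendon-like and D6 somite-like cells (0.541). Leaving out tail fibrocartilage-like cells with notochord markers moved 1 of 18 (Gas1 against tail tendon-like cells, 0.429). The background count for D10 tendon-like against D6 somite-like cells was 2493 genes, and 4336 or 1278 with a minimum of 1 or 20 CPM. For culture against tail in tendon-like cells it was 2364, and 4443 or 1100. Thinned to 5000 UMIs in place of 3000, 91 of 207 pairs of member and cluster reached a share of 10%, in place of 66. Spearman's rho named 11 of the 27 most alike genes that Pearson's r named. Depth limits the ratios of Hhip to D6, which rest on 9 UMIs.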
